A study of Drosophila melanogaster with 4 samples.

Results

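Regions enriched for dimethylated lysine 36 of histone H3 (H3K36me2) on the 4th chromosome of Drosophila melanogaster are described here. The members are all rows that the deposited region lists place on sequence 4 and name as enriched, 400 of the 18650 enriched regions in the 3 lists. They are 127 of 6161 regions in ChIP replicate 1, 126 of 6078 in ChIP replicate 2 and 147 of 6411 in the list of the replicate set, which overlaps the other lists and is no further replicate. All samples are wild-type flies of the Oregon-R strain (Oregon-R-modENCODE), labelled Mixed Adult, untreated and with no exact age given. The series holds 2 ChIP libraries and 2 libraries of input DNA, each of which is labelled as the background of 1 ChIP list. Flies were raised in population cages, heads were separated by sieving, and chromatin was fixed and sonicated before precipitation, so each list averages over the cell types of the head. The lists give a start, an end and a score for each region and no reads, so the depth is unknown, no gene could be assigned to a region, and the head label could not be checked against marker genes.

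H3K36me2 is placed on nucleosomes of transcribed chromatin. In Drosophila the methyltransferases Ash1 and Mes-4 add the dimethyl mark, whereas Set2 adds the trimethyl mark over transcribed gene bodies. The 4th chromosome, also named the dot chromosome, is by far the smallest autosome and carries developmental genes such as eyeless, a regulator of eye formation, and cubitus interruptus, the transcription factor of Hedgehog signalling. It is bound along much of its length by the heterochromatin protein HP1a and by POF, a protein specific to this chromosome, and it is rich in repeats, yet its genes are transcribed.

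Most of the 4th chromosome lay inside an H3K36me2 region, and the regions were packed at about double the density of the autosomal arms 2L, 3L and 3R. Of its 1351857 bp, replicate 1 had 51.8% inside regions, replicate 2 had 54.4% and the replicate set had 59.98%. The arms were covered over 22.5, 23.4 and 25.5% in replicate 1 and over 22.5, 23.3 and 25.1% in replicate 2, in the order 2L, 3L, 3R. Every value of the 4th chromosome thus lay above every value of the 3 arms. The mean of the replicates was 53.1% ± 1.9 (SD, n = 2), against 23.8% ± 0.14 (SD, n = 2) for the 3 arms together, a ratio of 2.23 ± 0.092 (SD, n = 2). The gap between them was far wider than the spread between replicates. With 2 samples of 1 group no exact test over samples can be made, and regions of a list are not replicates, so here and below differences are set against the replicate values without a p.

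The high covered share came with more regions rather than with much longer ones. The 4th chromosome held 93.9 regions per Mb in replicate 1 and 93.2 in replicate 2, against 46.6 and 45.8 on the 3 arms together, 2.03 ± 0.013 (SD, n = 2) times as many. Relative to the arms, where the median region measured 3753 and 3756 bp, the median length was 1.08 times as long in replicate 1 and 1.15 times in replicate 2. The direction of the length difference depended on the list, and the lists have unlike shortest regions. On the 4th chromosome the shortest measured 1313 bp in replicate 1, 1347 bp in replicate 2 and 1004 bp in the replicate set. In the replicate set the median was 3818 bp on the 4th chromosome and 3932 bp on the arms, and joining regions closer than 1 kb also turned the ratio below 1, to 0.973. The 16 and 17 regions that reached 10 kb held 35.1 and 37.1% of the covered length in the replicates, against 30.4 and 31.4% on the arms.

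**Figure D1:**
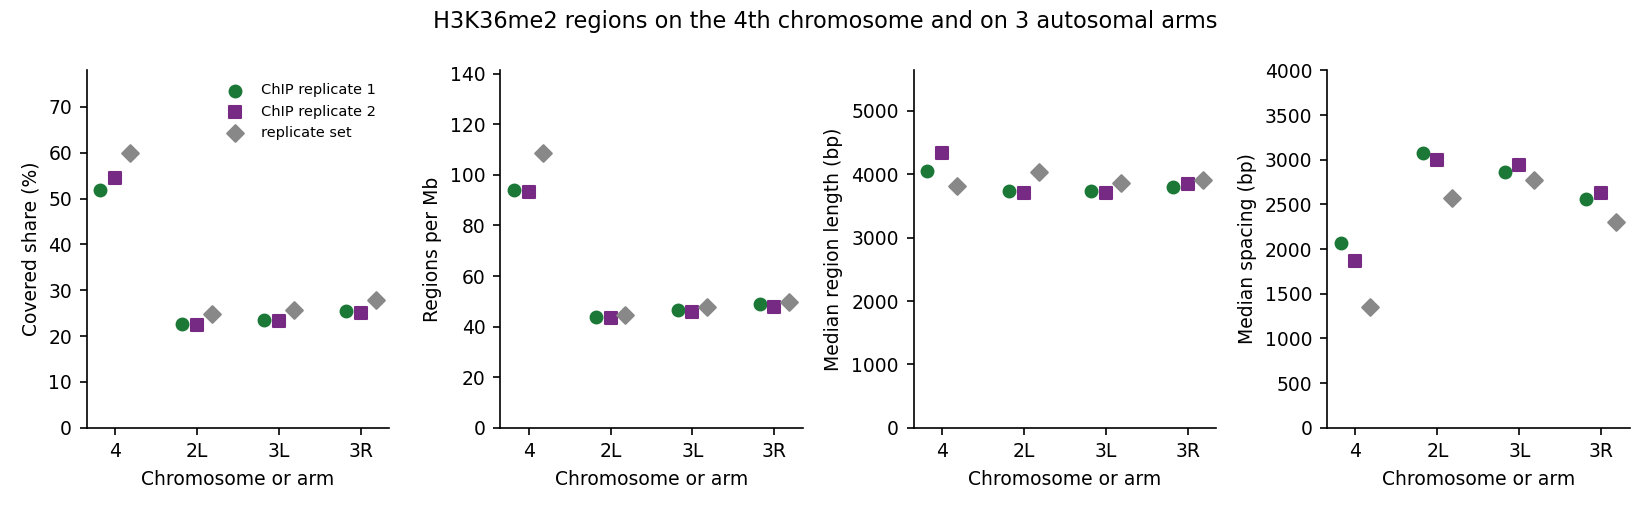
Covered share (%), regions per Mb, median region length (bp) and median spacing between neighbouring regions (bp) for the 4th chromosome and the arms 2L, 3L and 3R, with 1 point for each list and no error bars. The covered share of the 4th chromosome is 51.8 to 59.98%, against 22.5 to 27.8% on the arms, while median lengths lie close together.

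The stretches between regions differed from those of the arms at the wide end. For narrow stretches the direction differed between the lists. Those under 1 kb made up 27.0% of all stretches on the 4th chromosome in replicate 1 and 31.2% in replicate 2, against 28.8 and 29.2% on the arms. In the replicate set, which also lists shorter regions, the share was 37.7%, against 32.6% on the arms. Stretches of 1 to 5 kb were the most frequent class on the 4th chromosome, with 49.2 and 47.2% of all stretches, against 31.8 and 30.8% on the arms. No stretch between regions reached 100 kb on the 4th chromosome in any of the 3 lists, whereas such stretches took up 29.2% of the arms in replicate 1 and 30.1% in replicate 2. By number they were 3.82 and 4.03% of the stretches on the arms. Shares this small amount to a few stretches in a set the size of the 4th chromosome, with 126 and 125 stretches. Stretches of 20 to 100 kb numbered 7 and 6 on the 4th chromosome and took up 17.5 and 16.5% of it, against 32.6 and 32.1% of the arms.

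Neighbouring regions of the 4th chromosome lay a median of 2064.5 bp apart in the list of replicate 1, 1862 bp apart in that of replicate 2 and 1349 bp apart in the replicate set. On the arms together the medians were 2780, 2761 and 2532.5 bp in the same order. The ratio over the replicates was 0.709 ± 0.048 (SD, n = 2). The means differed more than the medians, 4735 and 4486 bp on the 4th chromosome against 16288 and 16608 bp on the arms, since the means carry the wide stretches.

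The ratio of covered share was also computed without the widest stretches of the arms. The widest stretch between regions of the 4th chromosome was 44.0 kb in replicate 1 and 55.9 kb in replicate 2. The arms held 359 stretches wider than that in replicate 1 and 279 in replicate 2, which added up to 36.7 and 33.03 Mb. In a comparison chosen after seeing the data, these stretches were taken out of the length of the arms. The rest of the arms was then covered over 46.6% in replicate 1 and 42.2% in replicate 2. The 4th chromosome was still higher, by 1.11 times in replicate 1 and 1.29 times in replicate 2, with a mean of 1.20 in place of 2.23. Because stretches leave the arms alone, past a width set by the 4th chromosome in each list, the ratio can only fall, and these values are a description of how much length the stretches hold.

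**Figure D2:**
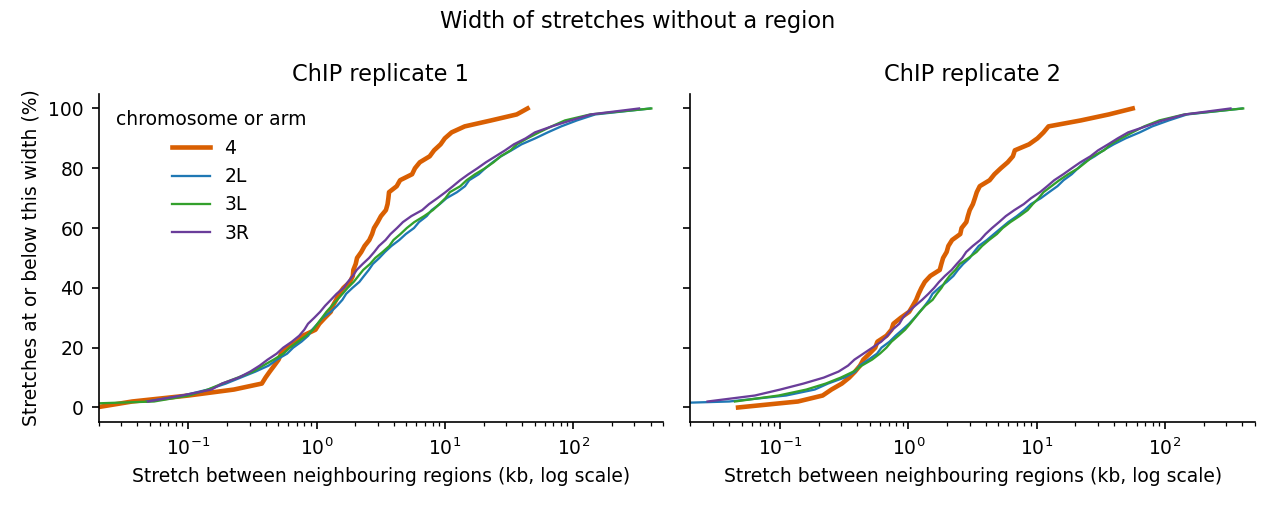
Cumulative share (%) of stretches between neighbouring regions by their width (kb, log scale) in each ChIP replicate, with 1 line each for the 4th chromosome, 2L, 3L and 3R. The line of the 4th chromosome ends at 44.0 kb in replicate 1 and 55.9 kb in replicate 2, while the arms reach beyond 300 kb.

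Enriched regions were spread along the chromosome, at uneven density and with none at its ends. The first region of the replicate set began at 25456 and the last ended at 1334020, in release 5 coordinates. The first, 25456 to 27441, scored 0.427 and was present in both replicates. The last, 1332811 to 1334020, scored 0.760 and was absent from both, so that the replicates left the final 29.6 kb empty. In the 13 windows of 100 kb that fit on the chromosome, the mean covered share of the replicates ran from 21.1 to 74.8%, with a median of 52.8%.

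The most covered window was 300001 to 400000, with 73.7% in replicate 1 and 75.8% in replicate 2. The least covered of these windows was 700001 to 800000, with 21.7 and 20.5%. A total of 6 of the 13 windows exceeded 60%. The shorter window at the distal end, 51.9 kb long, was covered over 14.1 and 18.2%. The replicates differed by at most 9.25 percentage points in a window, at 800001 to 900000, which held 41.4% in replicate 1 and 50.7% in replicate 2.

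On the 3 arms, 754 windows of the same width ran from 0 to 81.9%, with a median of 21.6%. Of these, 60 (7.96%) reached the median window of the 4th chromosome, and 368 (48.8%) lay below its lowest full window. Single stretches of the arms were therefore covered as densely as the 4th chromosome, but not over a length as long as that chromosome. Across 55 windows of its length placed end to end along the arms, the covered share of the replicates ran from 9.22 to 34.7% with a median of 23.5%, and none of them reached the 53.1% of the 4th chromosome.

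**Figure D3:**
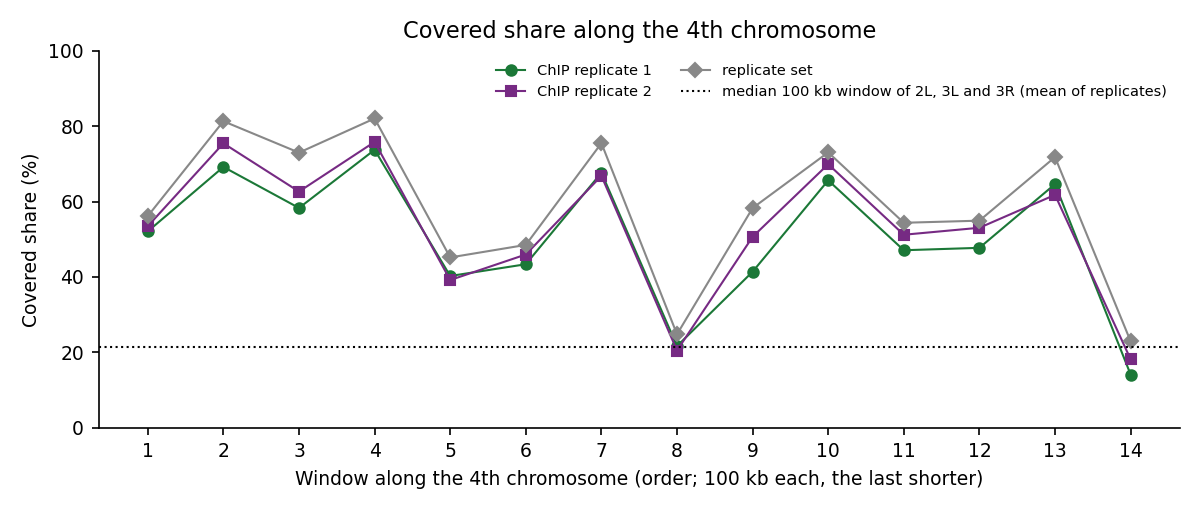
Covered share (%) in the 14 consecutive windows along the 4th chromosome, numbered from the start of the sequence, in each of the 3 lists. The dotted line is the median of 754 windows of 100 kb on 2L, 3L and 3R at 21.6%. Windows 8 and 14 lie at or below that line in the replicates, except for replicate 1 in window 8 at 21.7%, and the other windows lie above it.

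The 5 widest stretches without a replicate-set region added up to 181 kb, 13.4% of the chromosome and 33.5% of its uncovered length. They were 412601 to 456200 (43.6 kb), 753152 to 796350 (43.2 kb), 503513 to 541483 (38.0 kb), 1105305 to 1139657 (34.4 kb) and 991026 to 1013345 (22.3 kb). Replicate 1 had no base of a region in any of them, and replicate 2 had 10 bp in the second. They lay apart from each other, with regions between them. A further 15 stretches of the replicate set measured 5 to 20 kb. The longest run of replicate-set regions with less than 1 kb between neighbours was 48.7 kb, from 101508 to 150249, with 5 regions. The next was 44.3 kb, from 1169104 to 1213370, also with 5 regions. Replicate 2 had nearly the same runs, of 48.7 and 44.3 kb, whereas in replicate 1 neither was among the 5 longest. There the longest run was 40458 to 74621, 34.2 kb with 5 regions, and a run of 22.0 kb, 111058 to 133032, lay within 101508 to 150249. Runs of several regions held 45.7% of the regions of the 4th chromosome in replicate 1 and 47.6% in replicate 2, against 48.6 and 49.1% on the arms. In the replicate set, which also lists shorter regions, they held 59.2%, against 53.6% on the arms, so the direction differed between the lists.

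The longest regions of the chromosome were found in both replicates and differed mainly in whether a list split them. The longest of the replicate set, 300969 to 326080, measured 25.1 kb and scored 1.61. In replicate 1 it was a single region of 25.02 kb with a score of 1.57. In replicate 2 it was divided into 19.6 kb at a score of 1.76 and 5.18 kb at a score of 1.22. The next, 40394 to 64552, measured 24.2 kb and scored 1.41. It was divided in replicate 1, into 14.4 kb at 1.12 and 9.49 kb at 1.62, and was whole in replicate 2 at 1.46. The others were whole in both lists.

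Region 901539 to 925133 measured 23.6 kb and scored 1.79, with scores of 1.72 in replicate 1 and 1.89 in replicate 2. Region 348006 to 369035 measured 21.0 kb and scored 1.75, with 1.67 and 1.83 in the replicates. Region 110832 to 130891 measured 20.1 kb and scored 2.15, with 2.05 and 2.24 in the replicates. Each of the 5 was covered over at least 98.3% of its length by the regions of each replicate. No region of the 4th chromosome was as long as the longest of the arms, which measured 59825 bp in replicate 1 and 43410 bp in replicate 2.

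Scores of the 4th chromosome were slightly lower in the median than those of the arms. The score is the authors' value for each region and has no stated scale. The median of the 4th chromosome minus that of the 3 arms was -0.0759 in replicate 1 (0.900 against 0.976) and -0.0460 in replicate 2 (0.922 against 0.968). The mean difference, -0.0609 ± 0.021 (SD, n = 2), exceeded its spread between the replicates. The highest score on the 4th chromosome was 2.18 in replicate 1 and 2.26 in replicate 2. On the arms, 83 of 3515 regions (2.36%) in replicate 1 and 54 of 3456 (1.56%) in replicate 2 scored higher than that. Shares this small amount to a few regions in a set the size of the 4th chromosome, so nothing is read from their absence there. In replicate 1, 43 of the 127 regions of the 4th chromosome (33.9%) scored below the lower quartile of the whole list, against 27.2% of the arm regions. In replicate 2, 41 of 126 (32.5%) did, against 26.5%.

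The highest-scoring region of the replicate set was 1193162 to 1202451, 9.29 kb long, which scored 2.18 there, 2.18 in the first replicate and 2.26 in the other. Region 110832 to 130891, described above, came next. Region 700043 to 709560, 9.52 kb long, scored 2.07, with 2.06 and 2.10 in the replicates. It lies inside the least covered full window of the chromosome. Region 1034668 to 1047532, 12.9 kb long, scored 1.86, with 1.81 and 1.92 in the replicates. Region 1229778 to 1234422, 4.64 kb long, scored 1.81, with 1.81 and 1.85. All of these were single regions in both replicates.

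The lowest score of the replicate set was 0.058, in region 1052853 to 1054466, which was listed in replicate 2 with 0.229 and not in replicate 1. The next lowest were 369643 to 371139 at 0.164 and 610234 to 611524 at 0.188, and neither was listed in a replicate.

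Longer regions scored higher, and the lower scores of the 4th chromosome did not appear at every length. Spearman's rho between length and score was 0.75 in replicate 1 and 0.80 in replicate 2 on the 4th chromosome, against 0.82 and 0.81 on the arms. These are descriptions across regions of 1 library, in which neighbouring regions share a source. Under 2 kb the median score was 0.453 on the 4th chromosome and 0.452 on the arms in replicate 1, and 0.419 and 0.428 in replicate 2. From 2 to 4 kb the 4th chromosome was lower in all lists, with 0.721 against 0.803 in replicate 1, 0.675 against 0.797 in replicate 2 and 0.486 against 0.651 in the replicate set. From 4 to 8 kb it was 1.15 against 1.24 in replicate 1 and 1.20 against 1.19 in replicate 2, so the direction differed between the replicates. Over 8 kb it was 1.35 against 1.58 in replicate 1 and 1.43 against 1.53 in replicate 2. Each class held 25 to 42 regions of the 4th chromosome in a replicate.

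**Figure D4:**
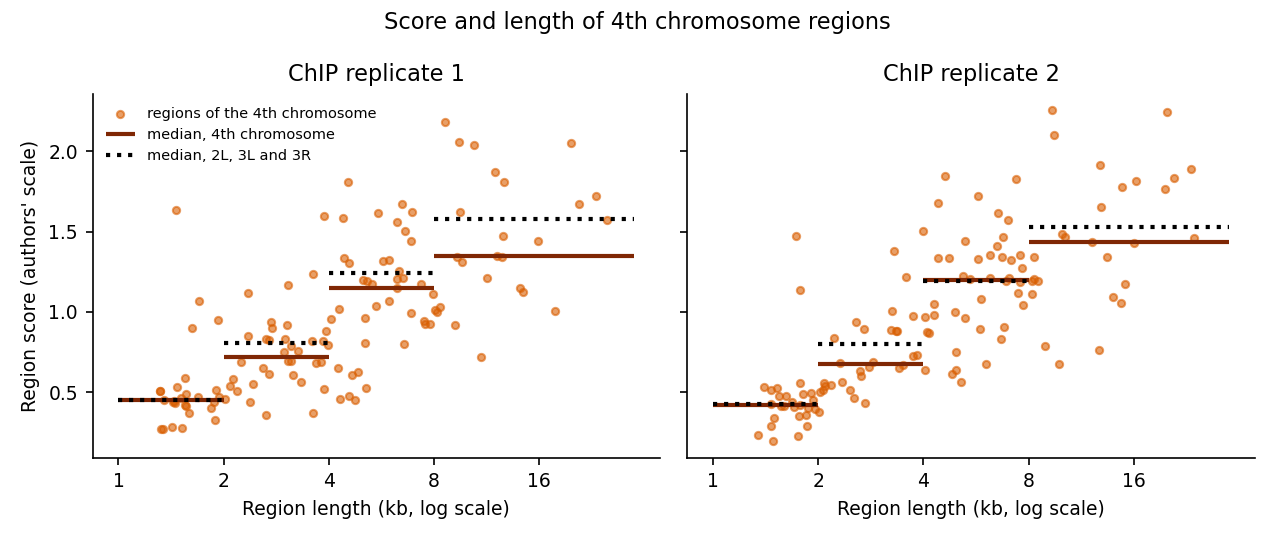
Score (authors' scale) against length (kb, log scale) for each region of the 4th chromosome in the 2 ChIP replicates, with medians in 4 length classes as solid lines for the 4th chromosome and dotted lines for 2L, 3L and 3R together. The lines coincide under 2 kb and the 4th chromosome lies lower from 2 to 4 kb and over 8 kb in both replicates.

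The replicates marked nearly the same parts of the chromosome, with more in replicate 2. In replicate 1, 122 of 127 regions shared at least 1 bp with replicate 2, which is 96.1% (Wilson 95% interval 91.1 to 98.3%, counting error only). The share over all sequences was 95.5%. Intervals here and below treat regions as separate draws, although neighbouring regions share a library, and serve as no test. In replicate 2, 114 of 126 regions were shared, which is 90.5% (84.1 to 94.5%), where the share over all sequences was 95.1% and that of the arms was 96.6% (96.0 to 97.2%). The length in common was 679 kb, with a further 21.1 kb in replicate 1 alone and 57.0 kb in replicate 2 alone. Bases listed in 1 replicate alone were thus 3.02% of the replicate 1 length and 7.74% of the replicate 2 length, against 4.99 and 4.20% on the arms.

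The same direction appeared in regions that the lists share. Of 94 regions of the 4th chromosome paired 1 to 1, 68 (72.3%) scored higher in replicate 2, against 1190 of 2831 (42.0%) on the arms. The median difference of replicate 2 minus replicate 1 was 0.075 on the 4th chromosome and -0.019 on the arms. The same number of pairs, 68 of 94, were longer in replicate 2, against 47.3% on the arms. Starts and ends of paired regions differed by a median of 89 and 86 bp, against 83 and 84 bp on the arms. The covered share was higher in replicate 2 in 10 of the 14 windows along the chromosome. Neither depth nor input values are in the lists, and their part in this difference was not tested.

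Of the regions without a counterpart, the 3 longest of replicate 1 were 1295024 to 1296720 (1.70 kb, score 1.06), 615312 to 616933 (1.62 kb, score 0.897) and 617526 to 619072 (1.55 kb, score 0.422). The 3 longest of replicate 2 were 231487 to 233416 (1.93 kb, score 0.452), 331651 to 333521 (1.87 kb, score 0.404) and 108699 to 110550 (1.85 kb, score 0.287). All 5 such regions of replicate 1 and all 12 of replicate 2 were shorter than 2 kb, and each overlapped a replicate-set region over at least 90.7% of its length. The median score of the 5 was 0.897, close to that of the whole chromosome, with a highest score of 1.64. The median score of the 12 was 0.417, with a highest score of 1.14.

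Most regions overlapped 1 to 1, and more of the others were divided in replicate 1 than in replicate 2. Of 109 groups of overlapping regions, 94 paired 1 region with 1 region, or 86.2%, against 89.9% on the arms. In 11 groups a replicate 2 region was divided in replicate 1, in 4 groups a replicate 1 region was divided in replicate 2, and in 0 groups were several regions matched to several. On the arms these counts were 144, 120 and 55 of 3150 groups.

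The replicate set added many short, low-scoring regions to the 4th chromosome. Of its 147 regions, 106 overlapped both replicates, 5 overlapped replicate 1 alone, 11 overlapped replicate 2 alone and 25 overlapped neither. The 25 are 17.0% of the regions (Wilson 95% interval 11.8 to 23.9%), against 10.5% over all sequences and 9.58% (8.66 to 10.6%) on the arms. Their median length was 1167 bp and their median score 0.316, against 5325 bp and 0.910 for those in both replicates. On the arms the regions found in neither had a median of 1296 bp and 0.323. Both median lengths lay below the shortest region of either replicate, 1313 and 1347 bp on the 4th chromosome and 1301 and 1304 bp on the arms. The replicate lists thus hold no regions of such lengths, and the part of this limit in the 17.0% was not tested. Regions in neither held 3.86% of the covered length of the 4th chromosome and 2.40% of that of the arms. The 3 longest were 260529 to 262840 (2.31 kb, score 0.221), 281539 to 283403 (1.86 kb, score 0.294) and 1275462 to 1277216 (1.75 kb, score 0.265). No region of either replicate on the 4th chromosome lay outside the replicate set.

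**Figure D5:**
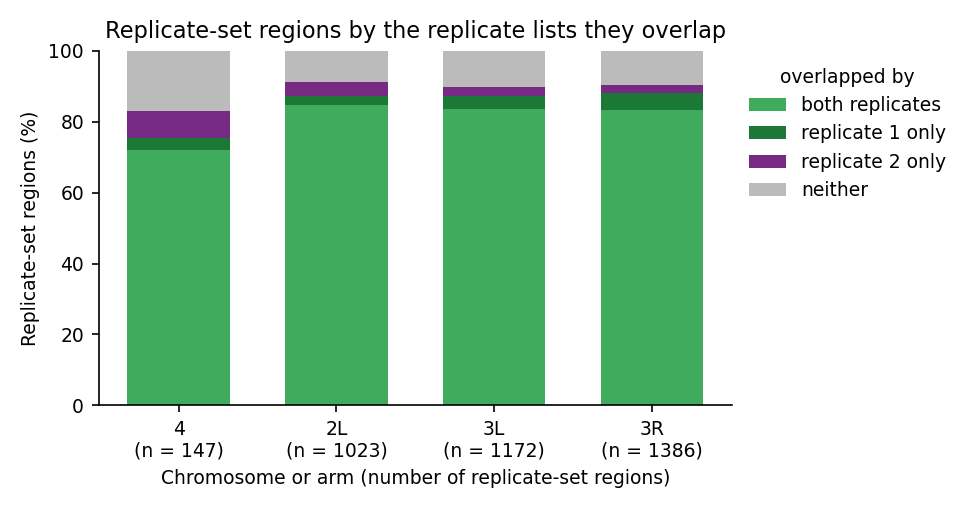
Share (%) of replicate-set regions that overlap both replicate lists, 1 of them or neither, for the 4th chromosome (n = 147) and the arms 2L, 3L and 3R. The share in neither is 17.0% on the 4th chromosome and 8.80 to 10.3% on the arms.

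Regions matched in all 3 lists had a slightly lower median score in the replicate set, though fewer of them than on the arms scored below both replicates. In 83 regions matched 1 to 1 in all lists, the median score was 0.928 in the replicate set, 0.944 in replicate 1 and 0.983 in replicate 2. The median difference between the set and the mean of the replicates was -0.032, against -0.046 on the arms. The set score was below both replicates in 39 of the 83 regions, against 1498 of 2515 on the arms. Their length in the set exceeded the mean of the replicates by a median of 167.5 bp on the 4th chromosome and 178 bp on the arms.

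The share of regions that merge several replicate regions was near the background. A replicate-set region held several regions of at least 1 replicate in 19 of 147 cases, or 12.9% (8.43 to 19.3%), against 12.9% over all sequences and 13.1% on the arms. Replicate 1 was divided in 14 of these cases and replicate 2 in 10, where cases divided in both replicates count in each number. At 1145773 to 1158542, a 12.8 kb region with a score of 0.597, replicate 1 had 3 regions of 1.33, 4.58 and 4.67 kb with scores of 0.268, 0.476 and 0.603, and replicate 2 had 1 region of 12.7 kb with a score of 0.764. At 957841 to 968933, 11.1 kb with a score of 0.694, replicate 1 had 1 region of 10.9 kb with a score of 0.717, and replicate 2 had 3 regions of 5.82, 2.63 and 1.46 kb with scores of 0.892, 0.633 and 0.289. At 600150 to 609978, 9.83 kb with a score of 0.605, replicate 1 had 3 regions of 2.99, 4.30 and 1.69 kb with scores of 0.832, 0.459 and 0.472, and replicate 2 had 1 region with a score of 0.673. The scores of these 3 broad regions lay below the median of their length class. No other replicate-set region of the chromosome held 3 regions of the same replicate. Of those that held at most 2, the longest were 300969 to 326080 and 40394 to 64552, given above.

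Replicate 1 named 1 region of its whole list as depleted. That region lies on the 4th chromosome, and the rule for members leaves it out. Replicate 2 named 1 region as depleted and the replicate set 7, none of them on the 4th chromosome. The depleted region of replicate 1 spans 108956 to 110545, 1590 bp, and its score of -0.0016 was close to 0. All of it lay inside a region named as enriched in replicate 2 (108699 to 110550, score 0.287) and inside one of the replicate set (108731 to 110589, score 0.192). The site lies within the longest run of the replicate set, 101508 to 150249.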

How the data were processed

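The members, lists and comparisons were chosen with earlier results of these data known. ChIP-seq was made from adult heads in 2 ChIP and 2 input samples. Per the submitters' processing notes, alignment used Bowtie 0.12.7. Per the file headers, positions refer to FlyBase release 5. The authors deposited 3 GFF3 lists with a score per region. Not given in the sources used here are the region caller, its threshold, the scale of the score and how the replicate set was made. The gene table at hand describes release 6, so no gene or sequence was read by coordinates.

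Regions named as enriched were read with pandas 2.3.3 and NumPy 2.4.6 in Python 3.11.15, and correlations and intervals used SciPy 1.17.1. The covered share is the summed length over the length in the file headers, and the spacing is the number of bases between neighbouring regions. Means ± SD are over the 2 ChIP lists, which the labels do not say came from separate collections, so the spread may be technical. Overlap needs 1 bp. Named regions follow 1 rule: in the replicate set the 5 longest, 5 highest-scoring and 3 lowest-scoring regions, the 5 widest stretches, the 5 regions holding the most regions of any 1 replicate (ties by length), the 3 longest in neither replicate, the first and the last; the 3 longest unshared regions of each replicate; and the extreme windows. The runs, the window with the widest replicate difference and the depleted region were named after their values were seen. The interval functions returned the known answer for all 20 simulated lists, and the common length of the replicates was equal to that of bedtools 2.31.1. Alternatives joined neighbouring regions, kept the higher-scoring regions of each list, measured from the first to the last region, used the replicate set, required 50% of a region to overlap, or left out a replicate.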

Additional observations from a re-analysis of the deposited data

How the results depend on the processing

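Of 45 alternatives over 11 results, 29 stayed within 1 SD of the replicates or within the interval of a share, 14 were counted as moved and 2 reversed. The 14 include the alternatives for the Jaccard index (defined below), which has no spread and was counted as moved at any value. Of the 29, 12 left out a replicate, which with 2 replicates lies within 1 SD by construction. No paired analysis was possible because the inputs enter only through the lists of the ChIP samples, which form 1 group. The ratio of median length, 1.12 over the replicates, turned to 0.973 after joining neighbours under 1 kb apart and to 0.971 for the replicate-set list. The replicate-set list also holds shorter regions than those of the replicates. In that list the covered share was 59.98%, the ratio of regions per Mb 2.29, that of median spacing 0.533 and the score difference -0.141. With regions above the median score of each list these were 36.4%, 1.83 and 0.636 for share, density and spacing, the shared regions were 88.5% and the Jaccard index, the common length over the length in either list, was 0.838 in place of 0.897. Joining gave a spacing ratio of 0.453, a score difference of -0.039 and a Jaccard index of 0.903. Measured from first to last region the share was 55.4%. Without the wide stretches of the arms, chosen after seeing the data, the ratio of covered share was 1.20. That ratio can only fall by its construction, and the cause of the other changes was not tested. The lists without 1 replicate gave 51.8 to 54.4% covered, ratios of 2.16 to 2.29 for share, 2.02 to 2.04 for density, 1.08 to 1.15 for length and 0.674 to 0.743 for spacing, and score differences of -0.076 to -0.046. Depth is unknown, so absence from a list does not show absence of the mark.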

Other observations

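The distal end of the 4th chromosome held short regions that scored high for their length. The limits used here, the last 75 kb and a length under 4 kb, were chosen after the values were seen, and no test was made. The last 75 kb held 7 regions of replicate 1, 6 of replicate 2 and 11 of the replicate set, all of them shorter than 4 kb. Their median scores were 0.947, 0.859 and 0.760 in that order, near the medians of all regions of the chromosome, 0.900, 0.922 and 0.710. The regions under 4 kb on the rest of the chromosome had medians of 0.543, 0.514 and 0.338 in the same order, with 56, 51 and 65 regions. Median lengths were similar, 2134 bp against 2296.5 bp in replicate 1 and 1887 bp against 2061 bp in replicate 2. Scores above the upper quartile of the short regions elsewhere (0.787, 0.675 and 0.427) were found in 5 of 7, 4 of 6 and 9 of 11. Among them, the regions scoring 1.64 and 1.06 in replicate 1 had no counterpart in replicate 2. The region scoring 1.14 in replicate 2 had none in replicate 1. The others counted in a replicate overlapped a region of the other replicate. Of the 11 in the replicate set, 5 overlapped both replicates and 6 did not. The highest score among the 25 replicate-set regions in neither replicate, 1.11, also belonged to this end, at 1311782 to 1312816.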
